A study of Mus musculus with 12 samples.

Results

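Levels of 7 Mas-related G protein-coupled receptor genes, Mrgprd, Mrgpra3, Mrgprx1, Mrgprb4, Mrgprb5, Mrgpre and Mrgprf, were compared between trigeminal ganglia (TG) and dorsal root ganglia (DRG). The 7 genes were chosen by symbol among the 22609 genes listed in every library, where 21 genes of the family appear in all and the other 14 served only for comparison. RNA came from sensory neuron fractions enriched by density on Percoll. Each ganglion was sampled in 3 female and 3 male libraries, 12 in all, which gave 4 groups. All mice were naive animals, labelled as C57BL (C57BL/6J in the study's methods) and as 3 to 4 months old, where the methods give a younger age. None was described as carrying a transgene or deletion, and the methods place the females in the estrous phase and the DRG at lumbar levels. The labels name 3 males and 3 females but do not say whether a TG and a DRG library share animals or whether tissue was pooled, so p-values here measure the spread between these libraries only.

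TG neurons serve the face and mouth, and DRG neurons serve the trunk and limbs. Several Mas-related receptors mark small unmyelinated sensory neurons that end in skin. Mrgprd is a receptor for beta-alanine and marks a large class of non-peptidergic nociceptors. Mrgpra3, the receptor for the itch-inducing drug chloroquine, and Mrgprx1 (older name MrgprC11), a receptor for peptides cut from proenkephalin, mark a smaller class of itch neurons. Mrgprb4 marks C fibres that respond to stroking of hairy skin, and Mrgprb5 is its close relative. Mrgpre and Mrgprf are orphan receptors, with no settled ligand. The transcription factor Runx1 is needed in development for the Mrgprd and itch neuron classes.

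The family has grown by gene duplication, so its members share stretches of sequence, and a read that aligns to several places was counted for none of them. All 7 genes are protein coding and lie on chromosome 7 in the mm9 build (NCBIM37, GENCODE vM1 annotation). Mrgprx1 is at chr7:55276341-55282971, Mrgpra3 at chr7:54844320-54856742, Mrgprb4 at chr7:55453583-55454548 and Mrgprb5 at chr7:55423353-55424384, all on the minus strand, as is Mrgpre at chr7:150964270-150970405. Mrgprf (chr7:152486733-152495462) and Mrgprd (chr7:152500740-152509964) are neighbours on the plus strand. In exon sequence, the share of 50-base windows (the read length) found nowhere else in the genome was 100% for Mrgprd and Mrgprf, 99.2% for Mrgprb5, 98.1% for Mrgprb4, 97.0% for Mrgpre, 92.7% for Mrgprx1 and 88.8% for Mrgpra3. Reads could thus be lost over 134 of 1197 windows of Mrgpra3 and over a smaller share in the others, whereas their relatives Mrgpra2a and Mrgpra2b kept only 12.4% and 14.3% unique windows.

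The longest runs shared by the closest pairs of coding sequences are given as examples of places where a 50-base read cannot be assigned. Other such places lie outside these runs. Of the 134 windows of Mrgpra3 with a copy, 94 had a copy between annotated genes and 78 had one in Mrgpra4. All 79 such windows of Mrgprx1 had a copy between annotated genes. Each line reads 5′ to 3′ on the coding strand from the mm9 genome, with the shared run in capitals and 20 bases on either side in lower case. Mrgpra3 (chr7:54845236-54845351) shares a run of 76 bases with Mrgpra4 (chr7:55236968-55237083), and the coding sequences are 88.4% identical. Mrgprb4 (chr7:55453615-55453711) shares a run of 57 bases with Mrgprb5 (chr7:55423419-55423515), and these coding sequences are 84.5% identical. All 4 stretches are coding and on the minus strand.
Mrgpra3: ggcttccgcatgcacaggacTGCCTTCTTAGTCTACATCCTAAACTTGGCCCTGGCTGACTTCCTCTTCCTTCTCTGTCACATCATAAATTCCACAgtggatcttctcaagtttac
Mrgpra4: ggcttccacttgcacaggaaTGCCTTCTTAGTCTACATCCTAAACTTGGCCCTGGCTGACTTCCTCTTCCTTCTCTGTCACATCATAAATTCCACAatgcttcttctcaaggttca
Mrgprb4: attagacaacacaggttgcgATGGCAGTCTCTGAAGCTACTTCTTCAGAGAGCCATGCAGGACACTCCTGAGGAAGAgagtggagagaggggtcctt
Mrgprb5: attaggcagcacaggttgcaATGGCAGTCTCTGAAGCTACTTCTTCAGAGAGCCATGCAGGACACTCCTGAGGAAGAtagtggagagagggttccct
The coding sequences of Mrgpra3 and Mrgprx1, whose levels were correlated, are 69.9% identical, and their longest shared run is 14 bases, shorter than a read. No pair among the 7 genes other than Mrgprb4 and Mrgprb5 shares a coding run of a read's length.

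Reads in genes ranged from 7511765 to 15396090 per library, and a level of 3 counts, taken as the floor, corresponded to 0.195 to 0.399 CPM (counts relative to the library total, scaled by TMM factors). Female DRG 1, the shallowest library, and female TG 3 stood apart from the rest of their groups, so results are also given without them where that changed a call. Neuronal markers were present in every library, with a summed level of the 10-gene pan-neuronal list of 6138 to 11553 CPM. Markers of other ganglion cells remained as well, and the 6 satellite glia markers summed to 2399 to 6373 CPM. In such bulk fractions, fewer cells of a type and less RNA per cell cannot be told apart.

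Mrgprd was the most abundant of the 7 receptors, followed by the 2 itch receptors, the Mrgprb pair and, far below, the orphan receptors. Per kilobase of exon, Mrgprd averaged 64.7 ± 21.3 CPM (SD, n = 12), Mrgprx1 49.8 ± 25.5 and Mrgpra3 36.3 ± 15.5. Mrgprb5 and Mrgprb4 averaged 23.1 ± 10.1 and 19.0 ± 8.48 CPM per kilobase. The orphan receptors Mrgpre and Mrgprf averaged 3.67 ± 1.51 and 1.44 ± 1.27 CPM per kilobase. Mrgprd lay above Mrgprx1 in 9 of 12 libraries and Mrgprb5 above Mrgprb4 in 8 of 12, so these neighbours in the order were not separated in every library. Mrgprx1 exceeded Mrgpra3, and Mrgpra3 exceeded Mrgprb5, in 11 of 12 libraries each, and Mrgprb4 exceeded Mrgpre in all 12.

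**Figure D1:**
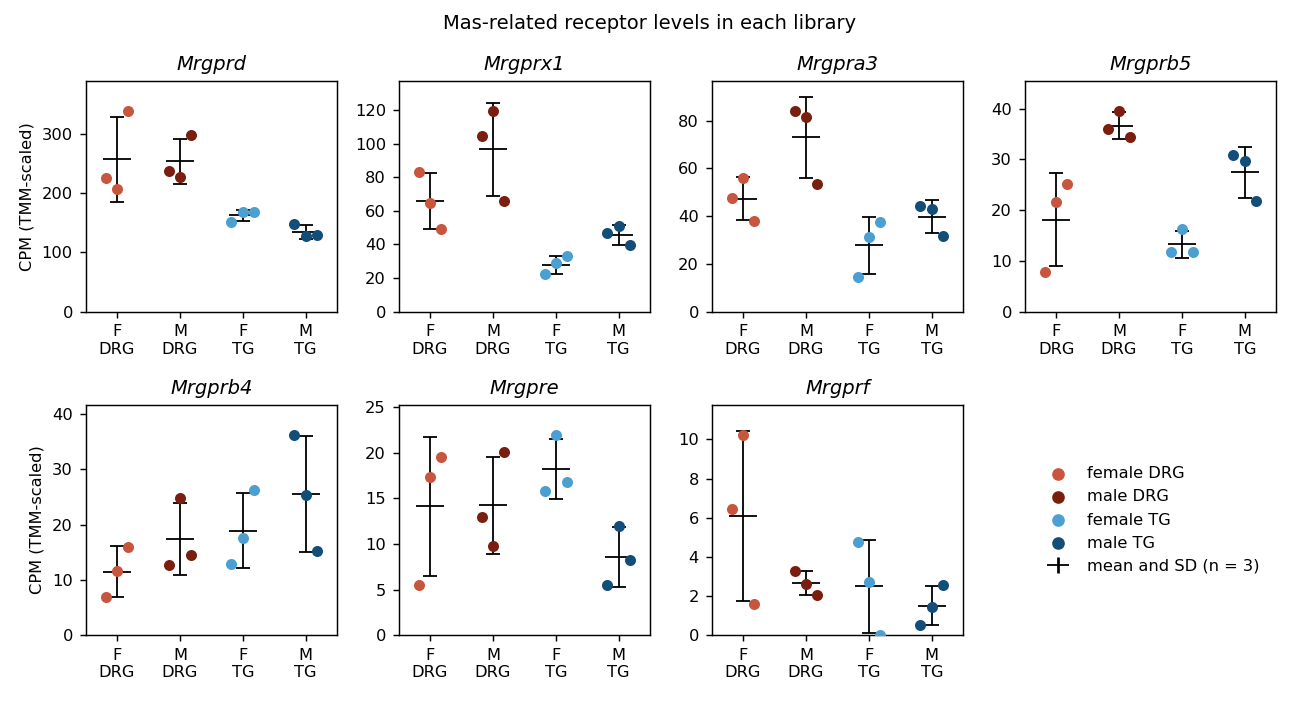
Level of each receptor gene in CPM (TMM-scaled, linear axis from 0) in the 12 libraries, with 1 point per library in female (F) and male (M) DRG and TG, and black bars for the mean and SD of 3 libraries. The 6 TG libraries of Mrgprd sit between 127 and 168 CPM, all below the 6 DRG libraries, and Mrgprf is at 0 in female TG 3.

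In TG, the nociceptor receptor Mrgprd and the itch receptor Mrgprx1 were lower than in DRG, and the other 5 receptors did not pass the test. Mrgprd was 1.72-fold and Mrgprx1 2.23-fold higher in DRG. With edgeR's quasi-likelihood test and Benjamini-Hochberg adjustment over all genes, 2 of the 7 genes were called at an adjusted p under 0.05, against 0.964% of the 14829 genes tested. Both were higher in DRG, a direction called for 0.337% of all genes. At an unadjusted p under 0.05, 3 of 7 passed, Mrgprd, Mrgprx1 and Mrgpra3, against 8.83% of all genes.

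Mrgprd was at 225, 207 and 338 CPM in female DRG and at 237, 226 and 297 CPM in male DRG. It was at 151, 168 and 168 CPM in female TG and at 148, 127 and 130 CPM in male TG. Every TG library lay below every DRG library, an absence of overlap in that direction shared by 0.364% of all genes. Mean levels were 149 ± 17.8 CPM for TG against 255 ± 51.0 CPM for DRG (SD, n = 6 each). The log2 fold change, TG over DRG, was −0.78 (SE 0.17, edgeR adjusted p = 0.0307). This call rested on the full set of libraries: leaving out any library other than female DRG 1, female DRG 2 or female TG 3 took the adjusted p to between 0.0505 and 0.128, with log2 fold changes of −0.66 to −0.82.

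Mrgprx1 was at 82.9, 64.8 and 49.5 CPM in female DRG and at 105, 119 and 66.0 CPM in male DRG. It was at 22.3, 28.7 and 32.95 CPM in female TG and at 46.7, 50.7 and 39.4 CPM in male TG. Over both sexes the ranges of the ganglia overlapped slightly, through male TG 2 and female DRG 3. Mean levels were 36.8 ± 10.9 CPM for TG against 81.2 ± 26.5 CPM for DRG (SD, n = 6 each). The log2 fold change was −1.16 (SE 0.21, edgeR adjusted p = 0.00584), and the adjusted p stayed between 0.00267 and 0.0316 whichever library was left out.

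Mrgpra3, which is expressed by the same class of itch neurons as Mrgprx1, was at 47.5, 56.2 and 38.2 CPM in female DRG and at 84.0, 81.6 and 53.5 CPM in male DRG. It was at 14.4, 31.2 and 37.6 CPM in female TG and at 44.4, 42.9 and 31.8 CPM in male TG. Over both sexes the ranges of the ganglia overlapped, at 14.4 to 44.4 CPM in TG against 38.2 to 84.0 CPM in DRG. The log2 fold change of −0.82 (SE 0.23) did not pass the test over all genes (edgeR adjusted p = 0.134). It passed with DESeq2 (adjusted p = 0.0307), which called 2.25% of all genes, and with edgeR when female TG 3 was left out (adjusted p = 0.0492).

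The stroking receptor gene Mrgprb4 was the only member of the 7 with a higher mean in TG. It was at 6.90, 11.7 and 16.01 CPM in female DRG, 12.7, 24.8 and 14.6 CPM in male DRG, 12.9, 17.5 and 26.3 CPM in female TG and 36.2, 25.3 and 15.3 CPM in male TG. The ranges of the ganglia overlapped widely, and the log2 fold change of 0.64 (SE 0.30) did not pass the test (edgeR adjusted p = 0.568). Its relative Mrgprb5 was at 7.85, 21.5 and 25.1 CPM in female DRG, 36.1, 39.5 and 34.4 CPM in male DRG, 11.8, 16.3 and 11.7 CPM in female TG and 30.9, 29.8 and 21.7 CPM in male TG. Its log2 fold change of −0.43 (SE 0.26) did not pass either (edgeR adjusted p = 0.742), with female libraries at 7.85 to 25.1 CPM and male libraries at 21.7 to 39.5 CPM over both ganglia.

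The orphan receptors were low in both ganglia. Mrgpre spanned 5.46 to 21.9 CPM in TG (median 13.9) against 5.47 to 20.1 CPM in DRG (median 15.1), and its log2 fold change was −0.18 (SE 0.33, edgeR adjusted p = 0.983), which turned to 0.11 when libraries were scaled to the pan-neuronal list. Mrgprf spanned 0 to 4.75 CPM in TG (median 2.003) against 1.61 to 10.2 CPM in DRG (median 2.95), and its log2 fold change was −1.04 (SE 0.84, edgeR adjusted p = 0.875). Mrgprf rested on few reads, with 0 counts in female TG 3 and 6 counts in male TG 1, and its libraries spread widely, with 54, 115 and 19 counts in female DRG.

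**Figure D2:**
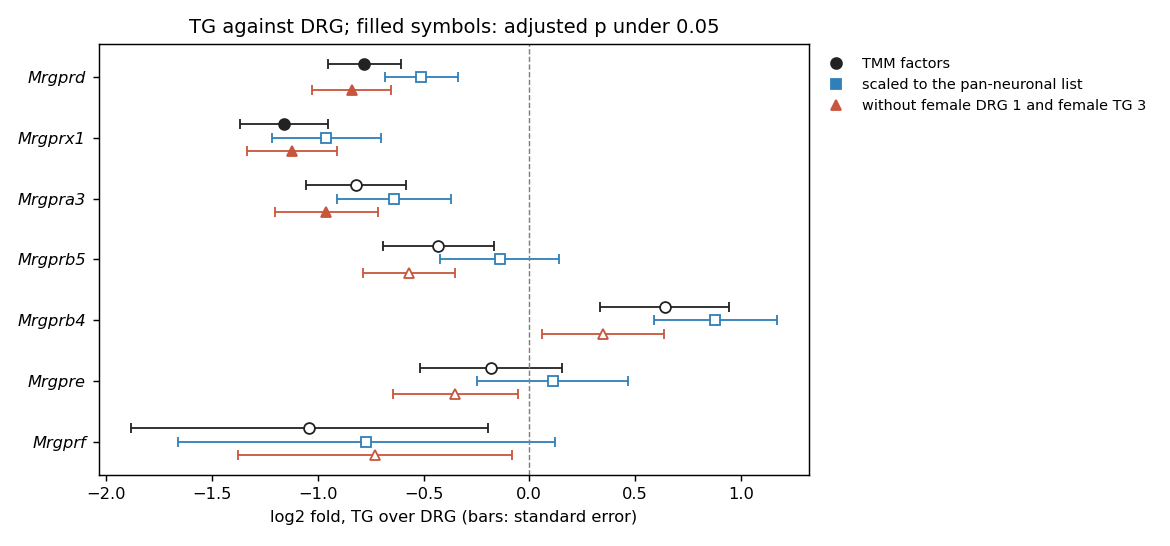
Fitted log2 fold change of each receptor gene, TG over DRG, with its standard error, under TMM factors, under scaling to the pan-neuronal list, and without the libraries female DRG 1 and female TG 3. Filled symbols mark an adjusted p under 0.05, which Mrgprd and Mrgprx1 have with TMM factors at −0.78 and −1.16 and no gene has under pan-neuronal scaling.

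The fractions may hold different amounts of neuron RNA, so each receptor was also set against the pan-neuronal list in its own library. Of the 10 pan-neuronal genes, 8 had a lower mean in TG and none was called, and the sums were 6138 to 8815 CPM in TG and 6444 to 11553 CPM in DRG. The lowest log2 fold change among them was that of Scn10a at −0.56 (edgeR adjusted p = 0.156). Whether the list follows some neuron classes more than others was not tested. Relative to the mean log2 level of this list, Mrgprd was lower in TG by 0.59 on the log2 scale, with no overlap between −1.88 to −1.25 in TG and −1.14 to −0.77 in DRG. An exact two-sided permutation test of 6 against 6 libraries gave p = 0.00216, the smallest that this design allows. Mrgprx1 was lower in TG by 0.95 (exact permutation p = 0.026), and Mrgpra3 by 0.68 (exact permutation p = 0.0758). The Mrgprx1 difference did not pass without female TG 1, and that of Mrgpra3 passed without female DRG 3.

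Mrgprb4 had the opposite sign. Relative to the pan-neuronal list it was higher in TG by 0.79 on the log2 scale (exact permutation p = 0.0152), with −4.84, −4.47 and −4.33 in female TG, −3.70, −4.19 and −4.77 in male TG, −5.70, −5.11 and −5.50 in female DRG and −5.08, −4.26 and −5.36 in male DRG. All DRG libraries but male DRG 2 lay below the lowest TG library. Mrgprb5 (−0.19, exact permutation p = 0.61), Mrgpre (0.08, exact permutation p = 0.838) and Mrgprf (−0.91, exact permutation p = 0.262) did not pass. These p-values are unadjusted for the 7 genes tested.

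When all genes were scaled to the pan-neuronal list in the edgeR fit, the log2 fold change of the median gene shifted to 0.24. That fit called 151 genes, and 0 of the 7 receptors were among them. Mrgprd was then at −0.51 (adjusted p = 0.237), Mrgprx1 at −0.96 (adjusted p = 0.0923) and Mrgprb4 at 0.88 (adjusted p = 0.218). Taken relative to that shift, Mrgprd was lower in TG by 0.75 and Mrgprx1 by 1.20 on the log2 scale. Taking off the shift largely undoes the scaling and returns the fit with TMM factors (−0.78 and −1.16), so these values are no separate evidence. Markers of other cells were called for none of the lists of satellite glia, Schwann cells, macrophages, fibroblasts, endothelium, mural cells, mast cells or red blood cells between the ganglia. All 7 macrophage and 5 of 6 endothelial markers had higher means in TG, with sums of 91.8 to 352 against 90.3 to 269 CPM and of 251 to 600 against 167 to 552 CPM. The part of these cells in the receptor levels was not tested.

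The balance among the receptors within a library does not depend on how libraries are scaled. Mrgprd held most of the reads of the 7 genes, 54.0% ± 7.72 in TG and 55.9% ± 8.93 in DRG (SD, n = 6 each). The log2 ratio of Mrgprd to Mrgpra3 did not differ between ganglia beyond the spread between libraries (TG minus DRG 0.09, exact permutation p = 0.797), nor did that of Mrgprx1 to Mrgpra3 (−0.27, exact permutation p = 0.104), which passed the threshold when female TG 1 was left out (−0.36). Mrgprb4 took 5.55 to 11.6% of the reads in TG and 1.81 to 4.92% in DRG, ranges that did not overlap. The 95% Wilson interval of its share in any library reached at most 1.05 percentage points to either side, which covers counting error only. This share also depends on the other genes of the pool, among them Mrgprd and Mrgprx1, which were called lower in TG. The CPM of Mrgprb4 overlapped, at 12.9 to 36.2 in TG against 6.90 to 24.8 in DRG (edgeR adjusted p = 0.568).

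The ratio within the Mrgprb pair was chosen after its values were seen and is given as a description, with no test. The log2 ratio of Mrgprb4 to Mrgprb5 was 0.13, 0.10 and 1.13 in female TG and 0.23, −0.23 and −0.49 in male TG. It was −0.17, −0.86 and −0.63 in female DRG and −1.47, −0.66 and −1.21 in male DRG. All 6 DRG libraries thus held less Mrgprb4 than Mrgprb5, while 4 of 6 TG libraries held more. The means were 0.14 ± 0.55 in TG and −0.83 ± 0.46 in DRG (SD, n = 6 each). The ratios are of reads, for genes of nearly equal exon length (966 and 1032 bases).

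**Figure D3:**
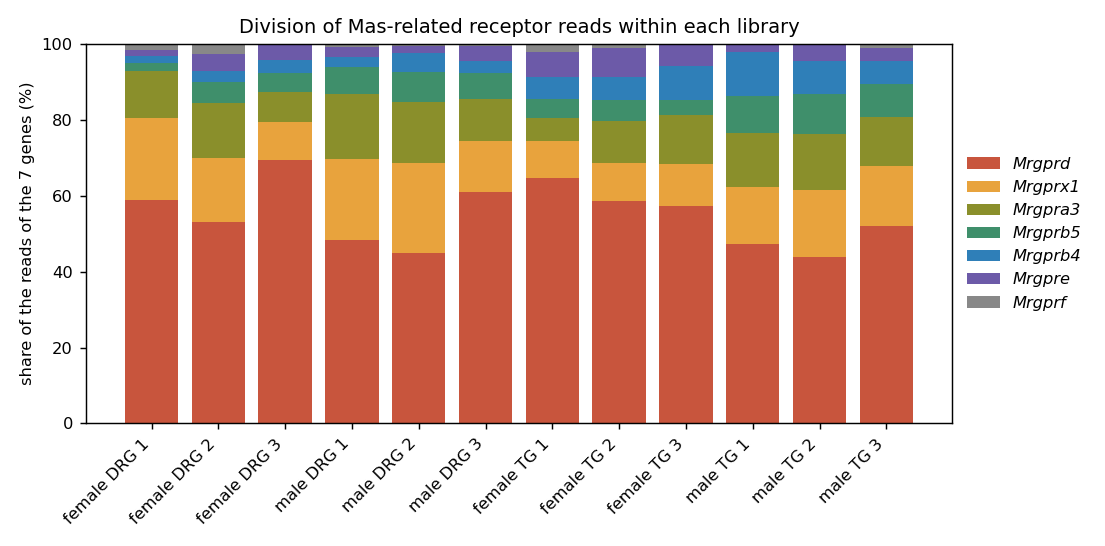
Percent of the reads of the 7 receptor genes that each gene took in each of the 12 libraries, as stacked bars from 0 to 100%. The band of Mrgprb4 is 5.55 to 11.6% in the TG libraries and 1.81 to 4.92% in the DRG libraries. The CPM of Mrgprb4 overlapped between the ganglia.

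Genes that act with these receptors were examined as lists. Of 12 genes of the Mrgprd nociceptor class, 11 had lower means in TG (median log2 fold change −0.49 against −0.01 over all genes) and none was called. The exception was Lpar3, a lysophosphatidic acid receptor, at 0.01. Among those with the smallest p-values were Prkcq (protein kinase C theta, −1.17, edgeR adjusted p = 0.0694) and Plxnc1 (a semaphorin receptor, −0.60). Of 16 other receptors and mediators of itch neurons, 12 had lower means in TG (median −0.39) and none was called. Nppb, the itch transmitter, was at −1.38 (edgeR adjusted p = 0.133), Osmr, the oncostatin M receptor, at −1.08 (adjusted p = 0.203) and Calca, the gene of CGRP, at −0.69 (adjusted p = 0.213).

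Among 15 genes for signalling downstream of the receptors, 1 was called in each direction (median −0.24). Trpv1, the capsaicin-gated channel, was lower in TG at 74.5 ± 12.2 against 127 ± 29.8 CPM in DRG (SD, n = 6 each, log2 fold change −0.76, edgeR adjusted p = 0.0425). Kcnq3, a potassium channel subunit of the M current, was higher in TG at 25.1 ± 6.60 against 7.99 ± 1.44 CPM (log2 fold change 1.66, edgeR adjusted p = 0.00186). The G protein subunits and phospholipases of the list, among them Gnaq and Plcb3, were not called.

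Among 7 genes of touch-sensing C fibres, Th, the tyrosine hydroxylase of C low-threshold mechanoreceptors, was called and was 11.3-fold higher in DRG. Its levels were 4.42 to 9.72 CPM in TG against 50.1 to 89.4 CPM in DRG (log2 fold change −3.50, edgeR adjusted p = 1.39e-07). The log2 fold changes of this list had a median of −0.60, with 4 genes lower and 2 higher in TG and the remaining gene at 0.00. Mrgprb4, which marks another class of touch C fibres, had a higher mean in TG but was not called. Among 7 lineage factors, the receptor tyrosine kinase gene Ret was called and was higher in TG at 815 against 474 CPM (log2 fold change 0.78, edgeR adjusted p = 0.0307), and Runx1 was not called (−0.51, adjusted p = 0.382). Of the 4 precursors of peptide ligands, only Penk and Pomc had enough counts to be tested, and neither was called. Penk, the proenkephalin gene, averaged 0.726 CPM in TG and 4.56 CPM in DRG.

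Other Mas-related genes were low, though not all were near the floor. The highest mean in either ganglion was that of Mrgprh in DRG, at 3.65 CPM, with up to 8.09 CPM in a single library. Of 13 relatives on the list, 7 had enough counts to be tested and none was called in either direction between ganglia, with a median log2 fold change of −1.06. Summed over the 13 genes, levels were 4.66 to 14.3 CPM in TG against 6.31 to 30.8 CPM in DRG, less than Mrgpra3 alone in each of the 12 libraries. The sum includes Mrgpra2a and Mrgpra2b, which kept only 12.4% and 14.3% unique windows against 88.8% for Mrgpra3. Most of their reads could be lost, so the sum may be too low for this comparison. Mrgpra6, Mrgprb3 and Mrgprg had no count in any library. Mrgpra4, the closest copy of Mrgpra3, averaged 0.159 CPM in TG and 0.903 CPM in DRG, and Mrgprb2, the mast cell member of the family, 0.130 and 1.06 CPM. Mrgprx2, which stood outside the list, had 47 counts in female DRG 1, 8 in male DRG 2, 6 in male TG 1 and 0 in the remaining libraries.

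Pairs of receptors were followed across libraries as a description, without a test. Mrgpra3 and Mrgprx1 varied together (Pearson r = 0.921 of log2 CPM over 12 libraries), which ranked Mrgprx1 second among 11436 genes by likeness to Mrgpra3, between the thioredoxin gene Txn1 (0.923) and the synaptic vesicle gene Synpr (0.916). Mrgprd and Mrgpra3 had r = 0.457, and Mrgprb4 and Mrgprb5 had r = 0.469. The 12 points share the difference between ganglia, the sexes and the depth of the libraries.

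**Figure D4:**
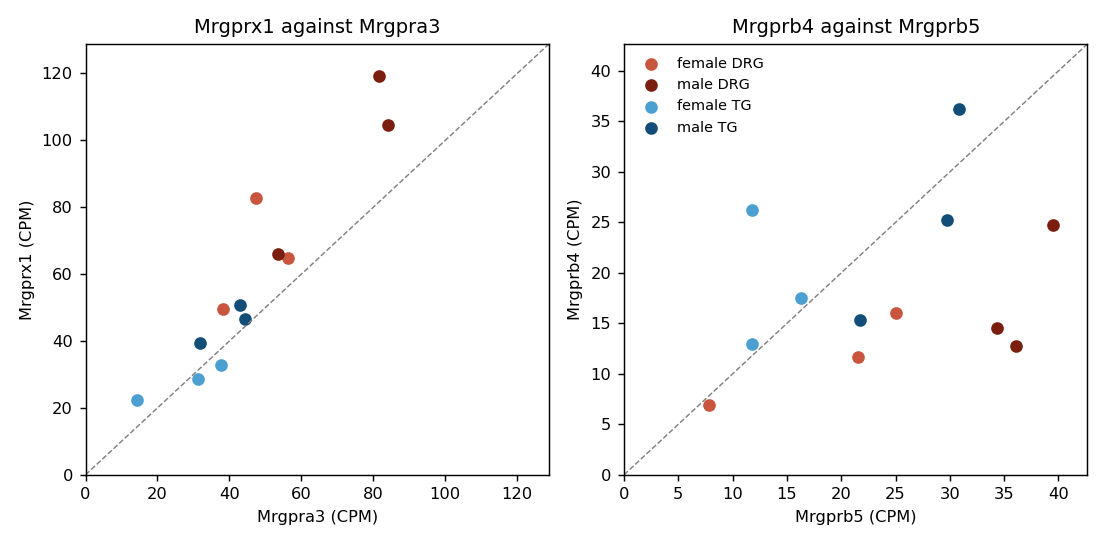
CPM of Mrgprx1 against Mrgpra3 (left) and of Mrgprb4 against Mrgprb5 (right) in the 12 libraries, coloured by group, with the dashed line marking equal levels. On the left the points follow a line (r = 0.921 on the log2 scale), and on the right the 6 DRG points lie below the dashed line while 4 of 6 TG points lie above it.

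The genes most like Mrgprd were Prkcd (r = 0.940), Dgki (r = 0.936) and Hoxd10 (r = 0.926), the last a homeobox gene of posterior body segments. Those most like Mrgprx1 were Ptgr1 (0.939), Lhfpl1 (0.934) and Cd9 (0.929). For Mrgprb4 they were Cpt2, Mrpl49 and Cdk7 (0.904 to 0.923), and for Mrgprb5 Actr6, Tspan12 and Mudeng (0.937 to 0.945). For Mrgpre they were 2810006K23Rik, Lnx2 and Zc3h18 (0.854 to 0.892), and for Mrgprf Naf1, Rbm22 and Marveld1 (0.945 to 0.978).

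Sex was compared within each ganglion, 3 female against 3 male libraries. None of the 7 receptors was called in either ganglion by edgeR, where 5 genes were called in TG (0.0357% of 14009) and 5 in DRG (0.0358% of 13963). These 5 were in both cases Xist and the Y-linked Ddx3y, Eif2s3y, Kdm5d and Uty. At an unadjusted p under 0.05, 3 of 7 receptors passed in TG and 1 of 7 in DRG, against 20.7% and 11.8% of all genes tested. DESeq2 called 1 receptor in TG, Mrgprb5 (adjusted p = 0.0451), among 7.6% of all genes, and none in DRG.

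Mrgprb5 was higher in males in both ganglia, by every library. In TG, 11.8, 16.3 and 11.7 CPM in females stood against 30.9, 29.8 and 21.7 CPM in males (1.99-fold, SE 0.30 on the log2 scale, edgeR adjusted p = 0.158). In DRG, 7.85, 21.5 and 25.1 CPM in females stood against 36.1, 39.5 and 34.4 CPM in males (2.01-fold, SE 0.41 on the log2 scale, edgeR adjusted p = 0.378). Neither value passed the test, and such an absence of overlap was found in 23.8% of all genes in TG and 17.5% in DRG. With offsets for the GC content and length of each gene the log2 fold change, female over male, became 0 to 2 decimals in TG (SE 0.32) and −0.19 in DRG (SE 0.33).

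In TG, Mrgprd, Mrgprx1 and Mrgpre also had no overlap between the sexes. Mrgpre, at 15.8, 21.9 and 16.8 CPM in females and 5.46, 12.02 and 8.25 CPM in males, was at 1.13 on the log2 scale, female over male (SE 0.37, edgeR adjusted p = 0.164). Mrgprx1, at 22.3 to 32.95 CPM in females and 39.4 to 50.7 CPM in males, was at −0.66 (SE 0.25, adjusted p = 0.196). Mrgprd, at 151 to 168 CPM in females and 127 to 148 CPM in males, was at 0.31 (SE 0.21, adjusted p = 0.4). Without female TG 3, edgeR called Mrgprb5 (−0.96, adjusted p = 0.0374), Mrgprx1 (−0.84, adjusted p = 0.0315) and Mrgpre (1.13, adjusted p = 0.0462), together with 23.6% of all genes tested.

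The 4 receptor genes with lower means in females in both ganglia, Mrgprb5, Mrgprb4, Mrgprx1 and Mrgpra3, had the lowest exon GC content of the set, 44.0 to 46.6% against a median of 49.2% over all genes and 51.1 to 57.0% in the other 3. With offsets for GC content and length, the direction of Mrgprb4, Mrgprx1 and Mrgpra3 turned in both ganglia, to log2 fold changes of 0.12 to 0.56 in TG and 0.25 to 0.43 in DRG, none of them called. Reads outside genes were separated by sex in DRG, at 46.4 to 50.4% in females against 38.2 to 42.6% in males. In TG their ranges overlapped, at 43.5 to 49.1% in females against 37.6 to 47.9% in males. Sums of fibroblast markers were 1031 to 1677 CPM in female TG against 618 to 1406 CPM in male TG, and 1460 to 2192 against 1028 to 1612 CPM in DRG. In DRG, endothelial markers summed to 269 to 552 CPM in females against 167 to 291 CPM in males. Mast cell markers in DRG summed to 225 to 287 against 158 to 183 CPM, with no overlap, but this sum was mostly Kit. Kit averaged 205 CPM in DRG, and the other mast cell markers at most 4.00 CPM each. In DRG, Kit was higher in females (log2 fold change, female over male, 0.69), while the other markers tested went both ways, from −1.97 to 0.52. The pan-neuronal sums were 6444, 6453 and 11553 CPM in female DRG and 9593 to 10097 CPM in male DRG. Their part in the sex values was not tested.

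**Figure D5:**
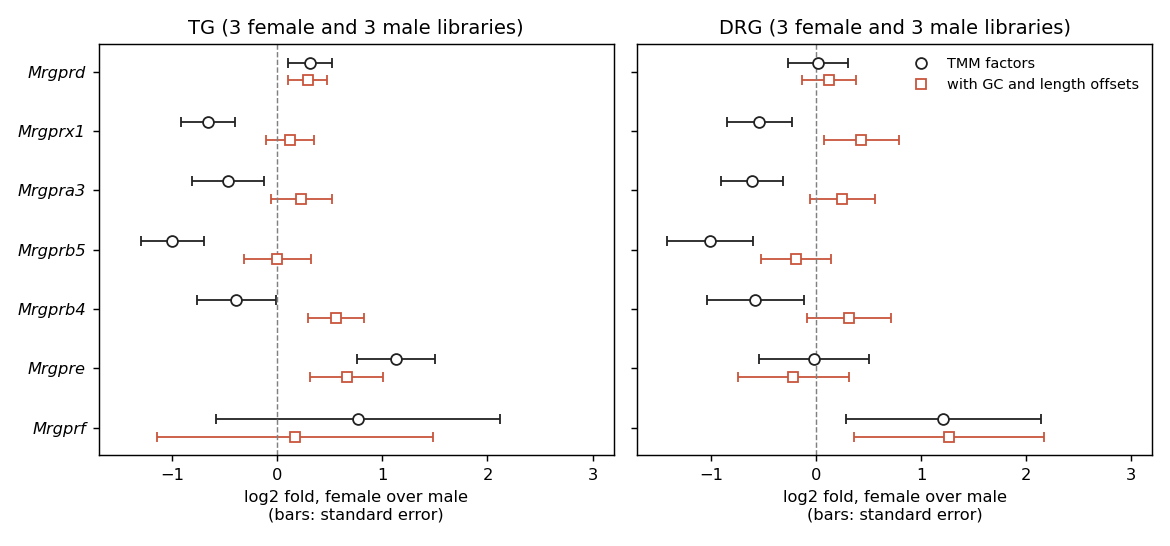
Fitted log2 fold change of each receptor gene, female over male, with its standard error, in TG (left) and DRG (right), with TMM factors and with added offsets for GC content and length. Open symbols show that no gene was called, and the values of Mrgprb5 lie closer to 0 with the offsets than without them in both ganglia.

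Whether the sex difference itself differed between ganglia was tested as an interaction in the fit of all 12 libraries. It was called for 0 of 14829 genes by edgeR and for 0 genes by DESeq2, with 1.97% of genes at an unadjusted p under 0.05 and none of the 7 receptors among them. The largest value belonged to Mrgpre, which had 1.13 in TG against −0.02 in DRG (log2, female over male). The interaction was 1.09 (SE 0.67, edgeR adjusted p = 1). For Mrgprd it was 0.25 (SE 0.34), for Mrgpra3 0.11 (SE 0.47), for Mrgprx1 −0.15 (SE 0.41), for Mrgprb4 0.15 (SE 0.60) and for Mrgprb5 −0.04 (SE 0.53). Within females, TG over DRG was −0.65 for Mrgprd and −1.23 for Mrgprx1, and within males it was −0.92 and −1.07, none called with 3 libraries against 3 (edgeR adjusted p = 1, 0.664, 0.163 and 0.138).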

How the data were processed

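Sensory neuron fractions of mouse TG and DRG were sequenced in 12 libraries, and groups were taken from the sample titles. By the study's methods, ribosomal RNA was depleted, libraries were dUTP stranded, and 50-base reads were aligned to mm9 by TopHat2 with its defaults. Raw counts per gene symbol, as deposited by the authors, came from HTSeq-count, which leaves out reads with several alignments. Their line held 38.4 to 49.5% of the sum of counts in genes and in the summary lines of each library. Only those from the shared stretches of the members were lost to the members, and how many these were cannot be told from the counts. Tool versions, annotation and strand setting are not given in the sources used here, so reads of overlapping antisense genes cannot be told apart. The 5 summary lines of each file were left out of library sizes and tests, and reads they place outside genes were 37.6 to 50.4% of the sum of reads in and outside genes. PCR copies could not be told from separate molecules, so floors and intervals cover counting error only.

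After filterByExpr and TMM scaling, groups were compared with the quasi-likelihood F-test of edgeR 4.0.16 in R 4.3.3, with Benjamini-Hochberg adjustment over all genes tested. TG against DRG and the interaction used all 12 libraries with a mean per group. Sexes were compared within a ganglion. DESeq2 1.42.0 was an alternative, since the authors used its predecessor. Levels relative to the pan-neuronal list and ratios were taken as log2(CPM + 0.5) and compared by exact two-sided permutation tests. Exons, coding identity and 50-base windows came from GENCODE vM1 on NCBIM37, the same build as mm9. GC and length offsets were splines with 5 degrees of freedom, fitted for the 95.8% of genes with values. The named genes were the 7 members, the called genes or otherwise up to 3 with the smallest p of each list in TG against DRG, and the 3 genes with the highest Pearson correlation to each member among genes of at least 5 CPM. Lpar3, Gnaq, Plcb3, Penk, Pomc and the relatives named singly were chosen after their values were seen. The values of 1 list gene are not given here. Members and lists were chosen with earlier results of these data known. The scripts were tested on simulated data.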

Additional observations from a re-analysis of the deposited data

Results flagged for a closer look

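Of 34 values examined by Dixon's test, 1 was marked. In female TG 1, the level of Mrgpra3 relative to the pan-neuronal list was −4.68 on the log2 scale, below the other 5 TG libraries at −3.82 to −3.41. Chance alone marks about 1 in 20 groups. The count behind it was 164 reads, and Mrgprx1 was also lowest in that library at 22.3 CPM.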

How the results depend on the processing

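Of 806 recomputed values and counts, 682 kept their direction and their side of the threshold or, for counts, stayed within 1.5 times the reported count. Another 36 no longer passed or were counts lower by more than that, 28 newly passed or were counts higher by more than that, and 60 changed sign. The causes were not tested, except that comparisons within a sex or with a library left out rest on fewer libraries.

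For TG against DRG, 143 genes were called, against 333 with DESeq2, 218 with no filter on low counts, 344 without female DRG 1 and female TG 3, 5 in females only, 58 in males only and 77 (without male DRG 2) to 231 (without female TG 3) with each library left out. Receptors called numbered 2, and 0 under pan-neuronal scaling or within either sex, and 1 to 3 with each library left out. Mrgprd was at −0.51, −0.65 and −0.92, and Mrgprx1 at −0.96, −1.23 and −1.07, under pan-neuronal scaling, in females and in males, none called. With each library left out, Mrgprd ran from −0.85 to −0.66. Mrgpra3 was called with DESeq2 (−0.86), without both libraries (−0.96) and without female TG 3, in a leave-one-out range of −0.96 to −0.67. Mrgpre turned to 0.11 under pan-neuronal scaling and to 0.38 in females.

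For the sexes, DESeq2 called 817 genes in TG and 348 in DRG. It called 1 receptor in TG, Mrgprb5 at −1.02. With no filter, 9 genes were called in TG. With each library left out, 5 to 3394 genes and 0 to 3 receptors were called in TG, the higher counts without female TG 3, and 5 to 10 genes in DRG. In TG, leaving out each library gave Mrgprx1 −0.84 to −0.56, Mrgprb5 −1.22 to −0.90, Mrgpre 0.89 to 1.45 and Mrgprf −0.15 to 1.37. Without female TG 3 the first 3 of these passed (−0.84, −0.96 and 1.13). In DRG, Mrgprd ran from −0.23 to 0.18 and Mrgpre from −0.33 to 0.35 (0.35 without female DRG 1), and Mrgpre turned to 0.13 with library totals and 0.25 with pan-neuronal scaling. GC and length offsets turned Mrgpra3 to 0.23, Mrgprx1 to 0.12 and Mrgprb4 to 0.56 in TG, and to 0.25, 0.43 and 0.31 in DRG.

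The interaction was called for no receptor under any setting, and signs of values near 0 changed. With each library left out, Mrgpra3 ran from −0.17 to 0.42, Mrgprx1 from −0.33 to 0.06, Mrgprb4 from −0.20 to 0.48, Mrgprb5 from −0.40 to 0.27 and Mrgprf from −1.35 to 0.16. Without both libraries Mrgpra3, Mrgprb4 and Mrgprf were at −0.17, −0.42 and 0.14. Mrgpra3 was −0.17 under pan-neuronal scaling and −0.02 with GC and length offsets. Mrgprb5 was 0.01 with DESeq2 size factors, 0.01 with the DESeq2 test and 0.20 with the offsets.

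With each library left out, levels relative to the pan-neuronal list ran from −0.92 to −0.50 for Mrgpra3 (passing without female DRG 3), −1.19 to −0.82 for Mrgprx1 (not passing without female TG 1) and −0.12 to 0.31 for Mrgpre. The log2 ratio of Mrgprd to Mrgpra3 ran from −0.14 to 0.29, that of Mrgprx1 to Mrgpra3 from −0.36 to −0.19 (passing without female TG 1) and that of Mrgprb4 to Mrgprb5 from 0.78 to 1.11.

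The labels do not say that replicate numbers pair the samples, and the numbers were not taken as pairs. Deviations of same-numbered libraries correlated at 0.028 to 0.216 between TG and DRG, −0.098 to 0.010 between sexes in TG and 0.032 to 0.168 in DRG. As a hint from the data and not from the design, 8 of 12 libraries correlated best with their own number in the other ganglion of the same sex. With a replicate block, 562 genes and 3 receptors were called between ganglia, Mrgpra3 at −0.86 among them (edgeR adjusted p = 0.00878), and the Mrgprb5 interaction was 0.11. With the block and GC and length offsets together, 517 genes were called, Mrgpra3 was not (edgeR adjusted p = 0.0501), and Mrgpra3, Mrgprx1, Mrgprb4 and Mrgprf were at 0.16, 0.11, 0.57 and −0.16 between sexes in TG, the first 3 at 0.19, 0.30 and 0.33 in DRG, and the interactions of Mrgpra3 and Mrgprb5 at −0.01 and 0.17.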
